A study of Mus musculus with 2 samples.

Results

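The 10 genes described here are 6 S100 genes (S100a4, S100a6, S100a8, S100a9, S100a10 and S100a11) and 4 annexin genes (Anxa1, Anxa2, Anxa4 and Anxa5), which were taken by name from the 24785 genes listed for the libraries. All 10 were among the 20235 genes listed for both. They were measured in single CD45+ cells, that is leukocytes, sorted from the lungs of wild-type C57BL/6N mice. The BLM library came from mice given bleomycin, a chemotherapeutic agent that injures the lung and is followed by fibrosis, through the trachea, and it was taken on day 15. The naïve library came from mice of the same strain without treatment. Each library pooled equal numbers of sorted cells from 3 mice of unmarked origin, so there was 1 library per group, mouse-to-mouse variation could not be measured, and no difference between the libraries has a replicate check or a p-value. The labels do not give the age and sex of the sequenced mice, and the study's bleomycin protocol used mice matched for both.

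S100 proteins are small proteins with paired EF-hand motifs, and most of them bind calcium. S100A8 and S100A9 form calprotectin, a heterodimer abundant in the neutrophil cytosol that acts as an alarmin when released, while S100A4, S100A6, S100A10 and S100A11 bind cytoskeletal or membrane proteins inside many cell types. Annexins bind acidic phospholipids in the presence of calcium: annexin A1 is an anti-inflammatory ligand of formyl peptide receptors, annexin A2 pairs with S100A10 at the plasma membrane, and annexins A4 and A5 bind membranes during trafficking, repair and cell death.

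All 6 S100 genes lie on mouse chromosome 3 of the GRCm38 build. S100a4 (chr3:90603771-90606045, forward strand), S100a6 (chr3:90612882-90624181, forward), S100a8 (chr3:90668978-90670035, forward) and S100a9 (chr3:90692632-90695721, reverse) lie together, with 22.6 kb between S100a8 and S100a9, and S100a11 (chr3:93520488-93526287, forward) and S100a10 (chr3:93555080-93564643, forward) follow 2824.77 kb further on. Anxa5 (chr3:36448923-36475894, reverse) is on the same chromosome outside this span. Anxa4 (chr6:86736840-86793584, reverse), Anxa2 (chr9:69453620-69491795, forward) and Anxa1 (chr19:20373428-20390944, reverse) are on chromosomes 6, 9 and 19. All 10 are annotated as protein coding.

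Promoter sequence is shown for genes whose levels followed each other in the results below: S100a8 and S100a9, which were alike across classes, S100a11 and Anxa2, which were lower in the BLM library in the same 9 of 10 classes, and S100a4, which had the largest ratio of the 10 classes compared. RefSeq windows of the 250 bases before the gene start were matched for 9 of the 10 genes (GRCm38.p6), and only the bases outside the annotated gene are printed, 5′ to 3′ on the gene's strand. Capitals mark matches on either strand to 5 motifs: TATAAA (the TATA box), TTGCNNAA (C/EBP), TGANTCA (AP-1), GAGGAAGT (PU.1) and GGGCGG (the GC box), none of which overlapped another here.
S100a4: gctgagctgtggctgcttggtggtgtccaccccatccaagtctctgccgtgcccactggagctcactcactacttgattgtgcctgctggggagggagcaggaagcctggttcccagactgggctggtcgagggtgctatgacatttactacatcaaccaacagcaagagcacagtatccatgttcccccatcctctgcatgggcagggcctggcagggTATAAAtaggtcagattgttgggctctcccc
S100a8: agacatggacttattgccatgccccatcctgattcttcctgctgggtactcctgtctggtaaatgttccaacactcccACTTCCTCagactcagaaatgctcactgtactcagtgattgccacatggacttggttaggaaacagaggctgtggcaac
S100a9: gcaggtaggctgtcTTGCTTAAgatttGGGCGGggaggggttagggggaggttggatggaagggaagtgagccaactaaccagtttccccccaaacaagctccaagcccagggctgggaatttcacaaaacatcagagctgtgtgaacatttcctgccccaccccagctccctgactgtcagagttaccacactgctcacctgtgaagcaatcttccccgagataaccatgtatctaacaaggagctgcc
S100a11: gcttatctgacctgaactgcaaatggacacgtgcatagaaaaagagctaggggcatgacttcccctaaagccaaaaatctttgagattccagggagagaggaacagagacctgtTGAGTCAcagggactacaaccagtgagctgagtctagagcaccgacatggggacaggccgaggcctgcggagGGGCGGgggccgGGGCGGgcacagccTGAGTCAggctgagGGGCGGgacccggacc
Anxa2: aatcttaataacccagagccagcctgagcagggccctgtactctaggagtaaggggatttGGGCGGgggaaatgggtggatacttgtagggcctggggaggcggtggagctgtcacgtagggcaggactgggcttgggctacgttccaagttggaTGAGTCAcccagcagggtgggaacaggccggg
These run from chr3:90603520-90603769 (S100a4, 250 bases), chr3:90668821-90668977 (S100a8, 157 bases), chr3:90695722-90695971 (S100a9, 250 bases), chr3:93520246-93520487 (S100a11, 242 bases) and chr9:69453433-69453619 (Anxa2, 187 bases). Upstream of S100a4 there was a TATA box that began 31 bases before the start, upstream of S100a8 a PU.1 match on the opposite strand, and upstream of S100a9 a C/EBP and a GC box match. The whole 250-base S100a8 window also held a TATA box that began 30 bases before the RefSeq start. It lay inside the annotated gene and is not printed. The S100a11 stretch held 2 AP-1 and 3 GC box matches, and the Anxa2 stretch held 1 of each. Among all 32851 mouse windows of 250 bases, 12.4% held the TATA motif, 9.56% the C/EBP motif, 6.75% the AP-1 motif, 2.44% the PU.1 motif and 32.7% the GC box motif. A match describes these letters and is not evidence of binding.

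The deposited tables held 4714 cells and 22490782 unique molecular identifiers (UMIs, each the count of 1 captured RNA molecule) in the BLM library and 4062 cells and 18019004 UMIs in the naïve library. After cells of low quality and predicted doublets were left out, 4391 BLM cells (median 2380 UMIs) and 3808 naïve cells (median 2699.5 UMIs) remained, and cells were assigned to classes by 6 marker genes per class, none of them among the 10 genes. Of the BLM cells 7.81% stayed unassigned, and of the naïve cells 4.73%. The 10 classes with at least 50 cells in both libraries are compared here. A total of 22 cell indices occurred in both libraries, of which 17 were kept in both and 2 had the same class. Levels are given as CPM, the UMIs of a gene in all cells of a class scaled per 1000000 UMIs of those cells, with an exact Poisson 95% interval, and ratios of the libraries are log2 ratios of CPM with an exact conditional 95% interval. These intervals cover counting error only, since UMIs of the same cell are not independent and the mice are not seen. A gene is said to be past 2-fold when its log2 ratio is at least 1 or at most -1 and its interval leaves out 0.

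Neutrophils, the phagocytes that arrive early in injured tissue, carried nearly all of S100a8 and S100a9. In 1001 BLM neutrophils S100a8 reached 11650 CPM (95% interval 11470 to 11830) and in 454 naïve neutrophils 12380 CPM (12130 to 12640). S100a9 was at 14820 CPM (14620 to 15030) and 15710 CPM (15420 to 16000). Within neutrophils the libraries were thus nearly level for the pair, with log2 ratios of -0.09 for S100a8 and -0.08 for S100a9. Neutrophils held 91.4% of the S100a8 and 94.95% of the S100a9 UMIs of the BLM library, against 90.95% and 92.3% in the naïve library. Over whole libraries S100a8 was higher in BLM by 0.53 on the log2 scale (845 against 584 CPM) and S100a9 by 0.50 (1035 against 729.7 CPM), while neutrophils made up 22.8% of BLM and 11.9% of naïve cells. Single neutrophils varied widely. The middle of the S100a8 distribution lay between 4803 and 16810 CPM per BLM cell (quartiles, median 9915) and between 5360 and 17610 CPM per naïve cell (median 10750).

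Both S100a6 and S100a11, calcium-binding partners of annexins, also had their highest level of the 10 classes in neutrophils, and both were lower in BLM neutrophils. S100a11 was at 2375 CPM in BLM and 3668 CPM in naïve neutrophils (log2 ratio -0.63, 95% interval -0.70 to -0.55), and S100a6 at 2012 and 2775 CPM (-0.46, -0.55 to -0.38). Anxa2, at 698 and 1041 CPM, had a log2 ratio of -0.58, whereas Anxa1, the formyl peptide receptor ligand, was level at 822 and 813 CPM (0.02). S100a10 had its lowest level of the 10 classes in neutrophils, at 66.9 and 34.6 CPM (0.95, 0.30 to 1.65), and S100a4 was at 72.6 and 42.9 CPM (0.76, 0.17 to 1.39, and -0.09 with classes from clusters). Of the 102 BLM UMIs of S100a4 in neutrophils, 1 cell held 26.5%. No gene of the 10 was past 2-fold in neutrophils, where 3.86% of 5755 genes tested (at least 20 UMIs over both libraries) were past 2-fold higher in BLM and 5.07% past 2-fold lower.

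**Figure D1:**
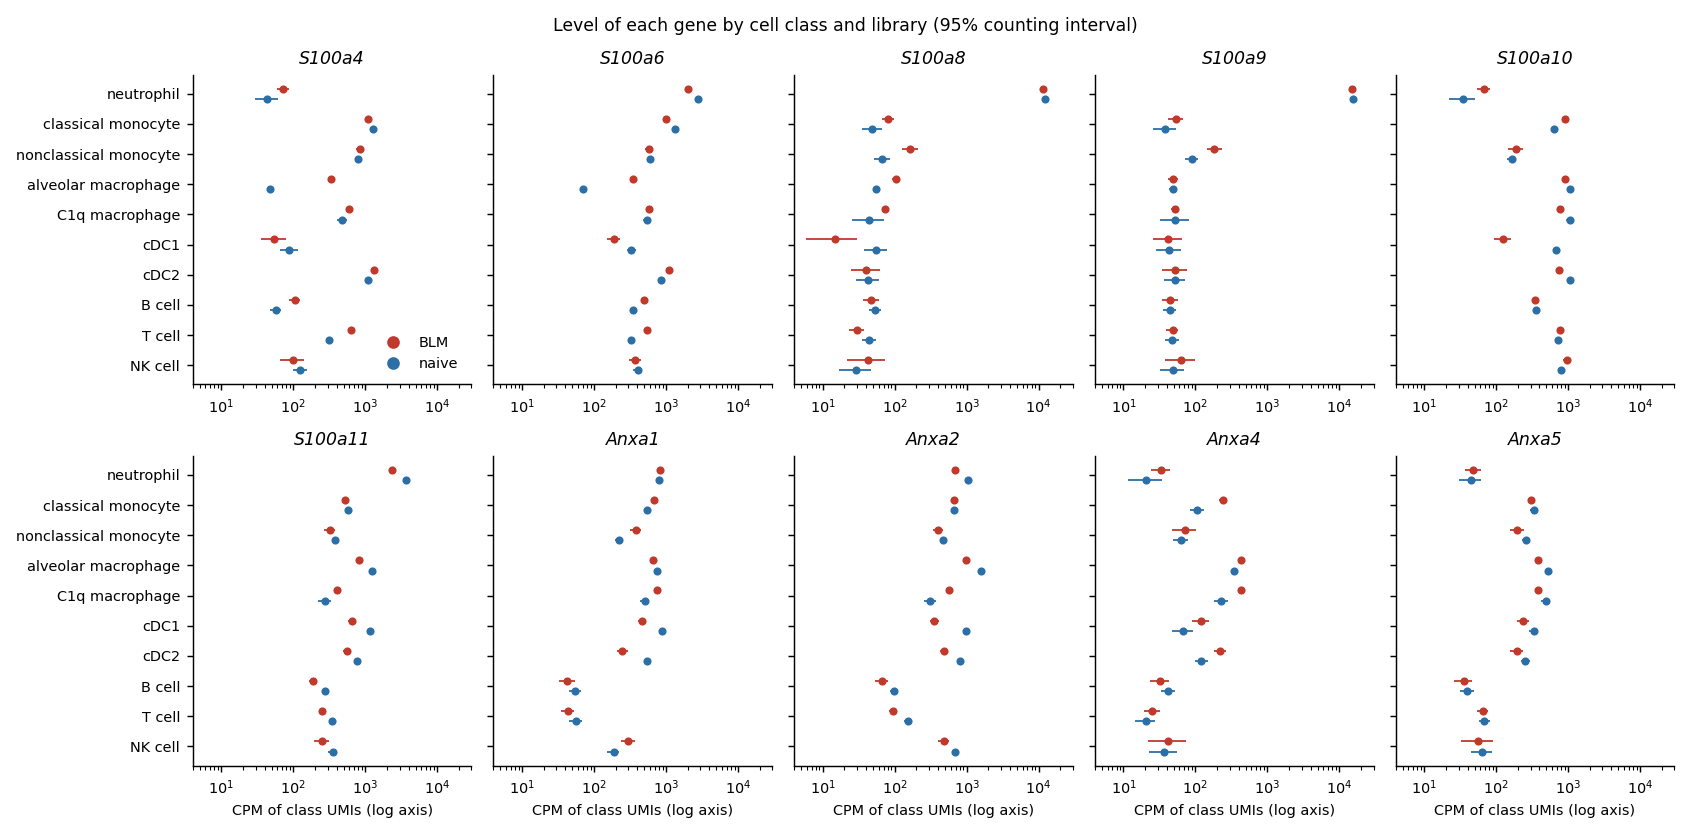
Level of each of the 10 genes in 10 cell classes, in CPM on a log axis, for the BLM (red) and naïve (blue) libraries; points are the level over all cells of a class and bars the exact Poisson 95% interval. S100a8 and S100a9 stand at 11650 CPM or more in neutrophils and at 183.5 CPM or less in every other class, and the blue point of alveolar macrophages lies far to the left of the red one for S100a4 and S100a6.

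In most classes other than neutrophils S100a9 was found at a like low level. In B cells, which are not known to make calprotectin, S100a9 was at 44.7 CPM (BLM) and 44.0 CPM (naïve), in T cells at 48.1 and 47.4 CPM, and in alveolar macrophages at 48.8 and 48.6 CPM. This is 0.302% and 0.280% of the neutrophil level in B cells, and the neutrophil marker Retnlg stood at 0.455% and 0.350% of its neutrophil level in the same cells. Levels of this size are read here as background and not as expression. Of the 10 classes compared, only nonclassical monocytes had an S100a9 interval clear of that of B cells, with 183.5 CPM (143 to 232) in BLM and 89.55 CPM (72.2 to 109.8) in naïve cells.

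S100a8 did not follow S100a9 in the BLM macrophages. In alveolar macrophages, the resident phagocytes of the airspace, S100a8 was at 103 CPM in BLM (366 UMIs in 295 cells) and 54.6 CPM in naïve cells (366 UMIs in 658 cells), a log2 ratio of 0.92 (0.71 to 1.13), whereas B cells of the same libraries stood at 46.9 and 53.7 CPM. S100a8 thus made up 67.9% (exact Clopper-Pearson 95% interval 63.8 to 71.8) of the S100a8 and S100a9 UMIs of BLM alveolar macrophages. In neutrophils that share was 44.0% (43.5 to 44.5) in BLM and 44.1% (43.4 to 44.8) in naïve cells, and in naïve alveolar macrophages 52.9% (49.1 to 56.7). C1q macrophages, a class marked by complement C1q genes, gave 58.7% (54.8 to 62.5) in BLM, and BLM classical monocytes 60.7% (53.1 to 67.9). A share above that of neutrophils was also found in naïve B cells, at 55.0% (47.8 to 62.0), while naïve classical monocytes, at 56.5% (44.0 to 68.4), and naïve cDC1, at 56.1% (42.4 to 69.3), had wide intervals. Only the BLM alveolar macrophages and the cells with both marker sets described next had intervals above that of naïve B cells. Intervals of neutrophils, BLM T cells and BLM cDC1 lay below it. The share in BLM B cells was 51.2% (42.1 to 60.2) and in BLM T cells 38.0% (30.85 to 45.5). Cells with both alveolar and C1q marker sets, of which there were 60 in BLM, had 71.65% (63.0 to 79.3). In BLM alveolar macrophages with 5 or 6 of the 6 alveolar markers the share was 70.3% (63.1 to 76.75), and 54.0% (49.95 to 58.0) in such naïve cells. Neutrophil markers in BLM alveolar macrophages ranged from 0.228% (Mmp9) to 0.583% (Cxcr2) of their neutrophil level, S100a9 was at 0.329% and S100a8 at 0.887%. After every cell was thinned to 1000 UMIs, 9.76% of BLM alveolar macrophages had an S100a8 UMI against 5.40% of naïve ones (56.95% against 40.9% before thinning, at median depths of 12039 and 9793 UMIs), and 4.65% of BLM B cells (9.40% before, median 1687 UMIs). Cells shallower than 1000 UMIs, 13 and 14 alveolar macrophages and 22 B cells, were left out of the thinned shares.

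**Figure D2:**
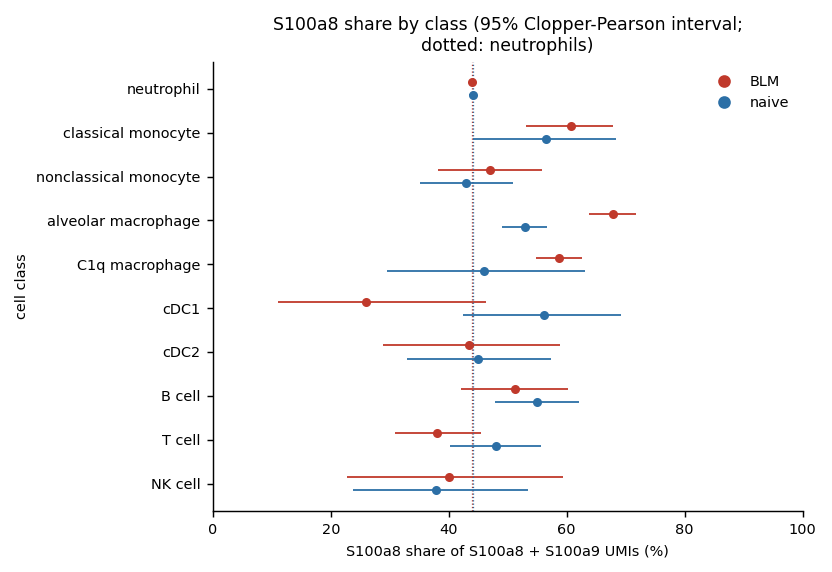
Share of S100a8 among the S100a8 and S100a9 UMIs of each class (x axis, percent) in the BLM (red) and naïve (blue) libraries, with exact Clopper-Pearson 95% intervals and dotted lines at the neutrophil values. BLM alveolar macrophages, at 67.9%, lie to the right of both neutrophil lines at 44.0% and 44.1%.

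Nonclassical monocytes, the patrolling monocytes of blood vessels, were past 2-fold higher in BLM for both calprotectin genes. S100a8 was at 162.5 CPM in 150 BLM cells (62 UMIs) and 67.2 CPM in 221 naïve cells (69 UMIs), a log2 ratio of 1.28 (0.76 to 1.79), and S100a9 at 183.5 and 89.55 CPM, a log2 ratio of 1.04 (0.57 to 1.499). The UMIs were held by few cells, since 18 of 150 BLM cells had any S100a8 UMI and 1 of them held 17, and 1 cell held 26 of the 70 S100a9 UMIs. Without the top cell of each library the levels were 119.5 against 51.7 CPM for S100a8 and 117 against 65.8 CPM for S100a9. Summed over the 6 neutrophil markers the BLM cells had 259.6 CPM and the naïve cells 387 CPM, with none of the 6 at 0 in either. The leading genes of these sums were Csf3r in BLM (83.9 CPM) and G0s2 in naïve cells (160.6 CPM). They stood at 3.86% and 6.26% of their neutrophil level, whereas Retnlg was at 0.415% (BLM) and 0.555% (naïve). The part of neutrophil RNA in these cells was not tested. When 3 rather than 2 markers were required for the class, the log2 ratios were 0.67 and 0.53, and neither gene was past 2-fold. Here 2 of 10 genes were past 2-fold higher and none lower, against 2.07% and 3.01% of 6314 genes tested. Anxa1 was at 380.2 and 224 CPM in these cells (log2 ratio 0.76), and for S100a4, at 842 and 788 CPM, the interval of the ratio held 0.

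Over the 10 classes compared, the largest ratio was that of S100a4, a regulator of myosin and cell motility, in alveolar macrophages. It was at 336 CPM in BLM cells (318 to 356) and 47.6 CPM in naïve cells (42.5 to 53.1), 7.07-fold higher in BLM (log2 ratio 2.82, 2.64 to 3.01). S100a6, or calcyclin, was at 347 against 69.6 CPM, 4.99-fold higher (log2 ratio 2.32, 2.16 to 2.48). Naïve alveolar macrophages had the lowest S100a6 level of the naïve classes with at least 20 cells, with all T cells as a single class. Naive-like CD4 and CD8 T cells of the naïve library were lower, at 31.3 and 27.5 CPM. The S100a4 level of naïve alveolar macrophages was not separated from that of naïve B cells (56.65 CPM) and neutrophils (42.85 CPM). The higher level in BLM alveolar macrophages was spread over the class. Their median cell had 209 CPM of S100a4 and 244 CPM of S100a6, whereas the median naïve alveolar macrophage had 0 of either. The top BLM cell held 3.02% of the S100a4 UMIs. At 1000 UMIs per cell, 29.0% of BLM and 4.33% of naïve alveolar macrophages had an S100a4 UMI (75.25% and 28.3% before thinning), and 4.815% of BLM B cells (9.56% before). Here 2 of 10 genes were past 2-fold higher and none lower, against 4.43% and 8.73% of 10482 genes tested.

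The marker composition of this class differed between the libraries. Ear1 was at 105 CPM in BLM and 678 CPM in naïve alveolar macrophages and Krt79 at 29.1 and 487 CPM, while Lpl was at 3384 and 3303 CPM. C1q macrophage markers summed to 237.9 CPM in BLM and 68.0 CPM in naïve cells. In the 64 BLM cells without any C1q macrophage marker S100a4 was at 383.5 CPM (46.6 CPM in such naïve cells), with 423 CPM (43.6 CPM) in cells with 1 and 280.3 CPM (65.2 CPM) in cells with 2 or more such markers. Cells with 5 or 6 of the 6 alveolar markers, which were 22.4% of the BLM and 84.0% of the naïve class, had 129.6 CPM of S100a4 in BLM and 40.0 CPM in naïve lungs (log2 ratio 1.70), and 159.9 and 62.8 CPM of S100a6 (1.35). In the 16 BLM cells with only 2 alveolar markers S100a4 was at 988 CPM. The few naïve cells with only 2 alveolar markers are not compared. S100a4 was thus above the naïve level in each of the 4 subsets compared with naïve cells, which overlap. It was closest to it in the cells with the fullest alveolar marker set. The part of the marker differences in the class ratio was not tested, and fewer cells of a type and less RNA per cell cannot be told apart where a class is summed.

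**Figure D3:**
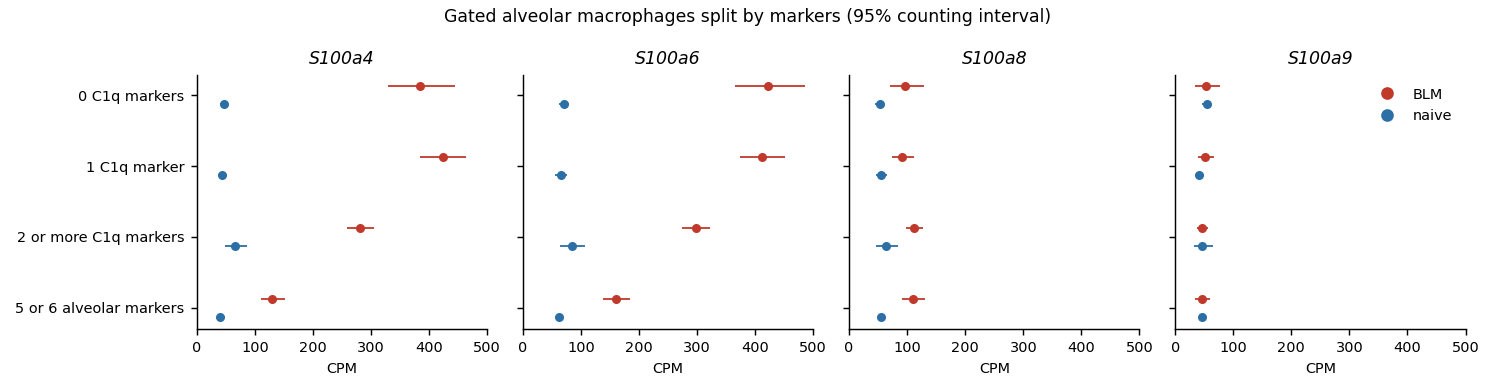
Levels of S100a4, S100a6, S100a8 and S100a9 (CPM, linear axis) in gated alveolar macrophages, split by the number of C1q macrophage markers detected and, in the lowest row, for cells with 5 or 6 alveolar markers; red is BLM, blue is naïve, bars are exact Poisson 95% intervals. S100a4 and S100a6 are higher in BLM in every row, and the gap is smallest for cells with 5 or 6 alveolar markers (129.6 against 40.0 CPM for S100a4).

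Of the other members, 5 were lower in BLM alveolar macrophages. S100a11 was at 824 and 1236 CPM (log2 ratio -0.58, -0.65 to -0.52), Anxa2, the phospholipid-binding partner of S100A10, at 991.5 and 1584 CPM (-0.68, -0.73 to -0.62), and Anxa5 at 385 and 530 CPM (-0.46). S100a10 (911 and 1051 CPM) and Anxa1 (654.5 and 755 CPM) had log2 ratios of -0.21 each, and Anxa4 was at 429 and 347 CPM (0.31). The median of all genes tested in this class was -0.19, so S100a10 and Anxa1 lay at the median gene. Of the other annexin genes with enough UMIs here, 1 of 4 was past 2-fold, Anxa3, at 322 and 60.8 CPM (log2 ratio 2.40). Of the receptor genes for S100A8/A9 and annexin A1, 3 of 5 were past 2-fold lower and none higher, led by the scavenger receptor Cd36 (61.0 against 587 CPM, -3.27) and the formyl peptide receptor Fpr2 (241 against 689 CPM, -1.51). Of 10 cytoskeletal genes of motile leukocytes 1, Crip1, was past 2-fold higher (318 against 149 CPM, 1.09), and of 7 tested genes of the partners and surface proteolysis system of S100A10 and annexin A2 1, Dysf, was past 2-fold lower at 5 and 50 UMIs.

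C1q macrophages were, of the 10 classes, the one with the most genes above 0, 7, in 469 BLM cells (median 10459 UMIs) and 70 naïve cells (median 5062.5 UMIs). Intervals lay above 0 for 6 of the 10 and below 0 for 2, and none was past 2-fold, against 5.76% of 9647 genes past 2-fold higher and 10.2% lower. Anxa4 (428 against 227 CPM, log2 ratio 0.91) and Anxa2 (572 against 311 CPM, 0.88) had the highest ratios, and S100a8 (72.7 against 44.4 CPM, 0.71, and -0.59 with classes from clusters), S100a11 (411 against 272 CPM, 0.60) and Anxa1 (747 against 507 CPM, 0.56) followed. S100a4 was at 599.7 and 478 CPM (0.33) and S100a6 at 589 and 549 CPM, where the interval of the ratio held 0. S100a10 (763 against 1048 CPM, -0.46) and Anxa5 (384 against 486 CPM, -0.34) were lower. Of the 10 classes, this was the only one with S100a11 and Anxa2 higher in BLM. The markers of this class differed between the libraries, since its own C1q markers summed to 5326 CPM in BLM and 11080 CPM in naïve cells, alveolar macrophage markers to 3997 and 961.8 CPM, and classical monocyte markers to 1263 and 3097 CPM, with no gene of these lists at 0. Their part in the ratios of the 10 genes was not tested. In the same cells Anxa3 was at 472 and 149 CPM (1.66), the 2 leading cytoskeletal genes were Tmsb10 (480 against 83.6 CPM, 2.52) and Lgals3 (1348 against 251 CPM, 2.43) among 3 of 10 past 2-fold higher and 1 lower, and of the genes around S100A10 and annexin A2 2 of 6 were past 2-fold higher and 2 lower, led by the urokinase receptor gene Plaur (1.48) and Plgrkt (1.39). Cd36 was the 1 receptor gene of 5 past 2-fold, lower at 468 against 1299 CPM.

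Classical monocytes, the Ly6c2-expressing monocytes recruited from blood, were among the highest classes for S100a4 in both libraries, at 1085 CPM (BLM, 243 cells) and 1286 CPM (naïve, 180 cells), and S100a6 was at 999 and 1315 CPM. Both were somewhat lower in BLM (log2 ratios -0.25 and -0.40, intervals below 0). Anxa4 was at 242 and 107 CPM, a log2 ratio of 1.18 (0.83 to 1.54), and S100a10 at 907 and 646 CPM (0.49). Anxa4 was the 1 gene of 10 past 2-fold higher and none was past 2-fold lower, against 8.01% and 5.1% of 7395 genes. When classes were taken from clusters instead of single-cell gates, the Anxa4 log2 ratio was -0.05. The classical monocyte gate itself differed between libraries, with Ly6c2 at 791 and 3390 CPM and the alveolar-list gene Lpl at 1646 and 470.5 CPM. Among other lists Anxa3 (272 against 61.5 CPM, 2.14) and S100a1 (127 against 51.4 CPM, 1.30) were the 1 gene past 2-fold of 4 tested annexin and of 2 tested S100 genes. The receptor genes had 3 of 5 past 2-fold higher, led by Fpr1 (48 against 5 UMIs) and the endotoxin receptor Tlr4 (69.5 against 21.3 CPM, 1.70). Of 6 genes around S100A10 and annexin A2 3 were higher, among them Plau (31 UMIs against 1) and Myof (180.4 against 64.0 CPM, 1.496), and none of the 10 cytoskeletal genes was past 2-fold.

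The cDC1, conventional dendritic cells that present antigen to CD8 T cells, were the class with the most genes past 2-fold lower, 3 of 10, against 7.12% of 5394 genes; none of the 10 was past 2-fold higher, against 4.73%. S100a10 was at 123 CPM in 56 BLM cells (93.7 to 159) and 677 CPM in 79 naïve cells (612 to 747), 5.50-fold lower (log2 ratio -2.46, -2.88 to -2.06). Its partner Anxa2 was at 357 and 965 CPM (-1.44, -1.69 to -1.19). Most BLM cells had no S100a10 UMI, as the median BLM cell had 0 CPM and the median naïve cell 457 CPM, and 1 BLM cell held 33.9% of the 59 UMIs. At 1000 UMIs per cell, 9.18% of BLM and 42.6% of naïve cDC1 had an S100a10 UMI (39.3% and 91.1% before thinning, at median depths of 8276.5 and 6937 UMIs). Anxa1 (467 against 889 CPM, -0.93), S100a11 (651 against 1152 CPM, -0.82), S100a6 (190 against 328 CPM, -0.79) and Anxa5 (238 against 333 CPM, -0.49) were also lower with intervals below 0, and Anxa4 alone was higher (119 against 67.4 CPM, 0.82). S100a8 was past 2-fold lower on 7 against 32 UMIs (14.6 against 55.3 CPM), and the naïve value was at the B-cell level of 53.7 CPM. Among the genes around S100A10 and annexin A2, Ahnak, a scaffold of that complex, was past 2-fold lower (361 against 1321 CPM, -1.87) and Plgrkt past 2-fold higher (62.6 against 25.9 CPM, 1.27), and the other 4 of 6 were neither. Of 10 cytoskeletal genes 3 were past 2-fold lower, led by Vim (1398 against 3324 CPM, -1.25) and Tagln2 (-1.24), and 2 were higher. Of the receptor genes 1 of 3, Fpr2, was lower on 3 and 17 UMIs, and no other annexin or S100 gene was past 2-fold.

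Marker sums of the cDC1 differed as well. The cDC1 markers were at 3722 and 4376 CPM. Alveolar macrophage markers summed to 3555 CPM in BLM and 400.6 CPM in naïve cDC1, of which Plet1 alone gave 3334 and 200.3 CPM, and Ear1, Krt79 and Marco, 3 other genes of that list, had no UMI in the BLM cells. Without the leading gene the sums were 221 and 200.3 CPM. Migratory dendritic cell markers summed to 171 and 1366 CPM, of which Ccl22 gave 79.3 and 1335 CPM. Plet1 and Ccl22 were named after their values were seen, and their part in the ratios of the 10 genes was not tested.

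In cDC2, the conventional dendritic cells that present antigen to CD4 T cells, S100a4 (1312 and 1100 CPM) and S100a6 (1111 and 862 CPM) were high in both libraries and somewhat higher in BLM (log2 ratios 0.25 and 0.36). Anxa1 was the 1 gene of 10 past 2-fold lower, at 248 CPM in 67 BLM cells and 550 CPM in 104 naïve cells (-1.15, -1.45 to -0.85), and none was past 2-fold higher, against 5.36% and 5.09% of 5975 genes. With cluster-based classes its log2 ratio was -0.83. In these cells the cDC2 markers summed to 5009 CPM in BLM and 6904 CPM in naïve cells, C1q macrophage markers to 570.4 and 172.7 CPM, and alveolar macrophage markers to 1316 and 746.7 CPM, of which Plet1 gave 909 and 145.5 CPM, while Ear1 and Krt79 had no UMI in BLM. Their part in the ratios was not tested. Anxa2 (486 against 802.5 CPM, -0.72), S100a10 (756 against 1060 CPM, -0.49), S100a11 (552 against 775 CPM, -0.49) and Anxa5 (194 against 253 CPM, -0.39) were lower and Anxa4 (218 against 121 CPM, 0.85) was higher, so the annexins and S100 genes of cDC2 had the same signs as in cDC1 except for S100a4, S100a6 and S100a9, whose ratio was 0.02. Plgrkt (72.6 against 23.1 CPM, 1.65) and Plau (14.1 against 35.4 CPM, -1.33) led the genes around S100A10 and annexin A2, of which 1 of 7 was past 2-fold higher and 2 lower. Cd36 was lower (72.6 against 166 CPM, -1.19), 1 of 2 tested receptor genes.

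**Figure D4:**
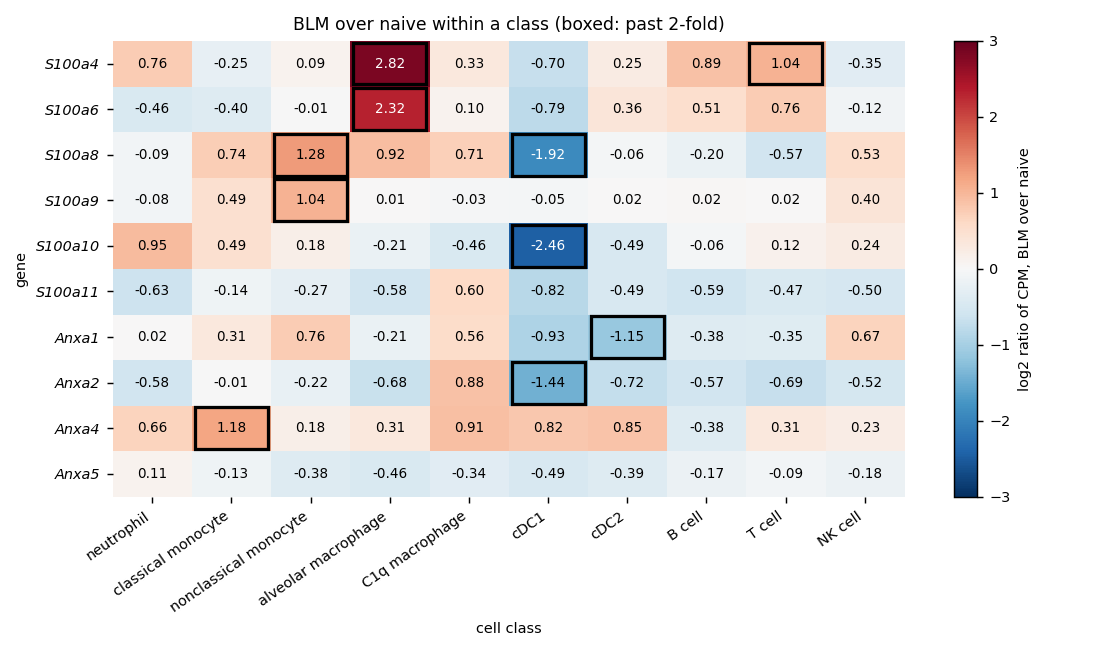
Log2 ratio of CPM, BLM over naïve, for the 10 genes (rows) in 10 classes (columns), with red for higher and blue for lower in BLM and black boxes around the pairs past 2-fold. Of the 10 boxes 6 are higher and 4 lower, where 1.07% to 8.01% of all genes tested in a class were past 2-fold higher and 2.92% to 10.2% lower. S100a11 and Anxa2 are below 0 in every column but C1q macrophages.

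Over all 100 pairs of gene and class, 6 were past 2-fold higher in BLM and 4 lower. Among all genes tested the share past 2-fold higher ran from 1.07% (B cells) to 8.01% (classical monocytes). The share past 2-fold lower ran from 2.92% (T cells) to 10.2% (C1q macrophages). The counts of the 10 genes are thus not read as a result about them. Of the 100 intervals 30 lay above and 34 below 0, and the share of all genes is not given for these. S100a11 was below 0 in 9 of 10 classes, with 7 intervals below 0, and so was Anxa2. Both were also below the median gene of the class in 9 of 10. Alveolar macrophages held 27.5% of the BLM and 69.7% of the naïve Anxa2 UMIs, and 21.4% and 54.0% of the S100a11 UMIs. In B cells their markers summed to 143.7 CPM in BLM and 267.6 CPM in naïve cells, and in T cells to 150.0 and 265.4 CPM. The sum was also lower in BLM NK cells and higher in BLM neutrophils, monocytes, C1q macrophages and dendritic cells. Plet1 or Lpl alone led these sums in dendritic cells and classical monocytes. Without the leading gene of each library the sums were 221 (BLM) and 200.3 CPM (naïve) in cDC1. They were 407 and 220 CPM in cDC2 and 404 and 152 CPM in classical monocytes. The part of background in these ratios was not tested. Anxa5 was below 0 in 9 of 10 classes with 5 intervals below 0, and Anxa4 was above 0 in 9 of 10 with 5 intervals above 0. The classes share their libraries, so these counts describe 1 pair of libraries and not repeated measurements.

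Among lymphocytes, S100a4 was past 2-fold higher in BLM T cells, at 639 CPM in 801 BLM cells (607 to 673) and 312 CPM in 649 naïve cells (287 to 338), a log2 ratio of 1.04 (0.90 to 1.18). It was the 1 gene of 10 past 2-fold higher and none was lower, against 2.49% and 2.92% of 9393 genes. Without cycling cells the ratio was 0.87, below 2-fold. T cells with a Foxp3 UMI, described below, were 86 of the BLM and 22 of the naïve T cells. They held 595 of the 1475 BLM and 19 of the 585 naïve S100a4 UMIs. The log2 ratio of S100a4 ran from -1.43 in CD8 effector-like cells to 2.99 in Foxp3 cells, and the part of the subsets in the class ratio was not tested. Over all T cells S100a6 was at 545 and 322 CPM (0.76), and S100a10 at 775 and 714 CPM (0.12). Anxa2 (94.9 against 153 CPM, -0.69) and S100a11 (249 against 344 CPM, -0.47) were lower. In B cells S100a4 was at 104.8 and 56.65 CPM (0.89, 0.52 to 1.25) and S100a6 at 491 and 345 CPM (0.51). An S100a4 UMI was found in 9.56% of BLM and 10.3% of naïve B cells (4.815% and 4.31% after thinning). For S100a6 these shares were 19.8% and 21.9% (12.5% and 12.2% after thinning). Means of the single-cell levels were 60.8 and 44.3 CPM for S100a4 and 229 and 198 CPM for S100a6. The shares and means of B cells thus differed less than the class levels. None of the 10 genes was past 2-fold in B cells, against 1.07% of 8966 genes higher and 3.48% lower, nor in NK cells, against 1.5% of 5614 genes higher and 3.28% lower. In NK cells S100a10 was at 954 and 808 CPM (0.24) and Anxa2 at 481 and 688 CPM (-0.52), and Anxa1 was at 298 and 187 CPM (0.67). Of the other lists Anxa3 was past 2-fold higher in T cells (12.6 against 2.13 CPM) and B cells (13.9 against 2.44 CPM), and 3 of 4 receptor genes were past 2-fold lower in each, led by Fpr2 (-2.97) and Fpr1 (-1.96) in T cells and Fpr1 (-2.38) and Fpr2 (-1.64) in B cells, at 27.2 CPM or less. These 3 receptor genes, Cd36, Fpr1 and Fpr2, were also the ones past 2-fold lower in alveolar macrophages, where naïve Fpr2 was at 689 CPM. The Fpr1 and Fpr2 levels of B and T cells are not read as expression. The part of background in the B and T cell ratios of these receptor genes was not tested. No gene of the lists was past 2-fold in NK cells. In neutrophils Anxa3 (61.2 against 11.1 CPM, 2.47), Cd36 (17.1 against 48.4 CPM, -1.502) and Crip1 (96.8 against 48.4 CPM, 1.001) were each the 1 gene of their list past 2-fold, and in nonclassical monocytes Anxa3 (52.4 against 18.5 CPM, 1.503), Anxa7 (-1.07), Tlr4 (2.07) and Fpr1 (1.09).

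Within T cells the level of S100a4 depended on the subset. CD4 and CD8 T cells were called naive-like or effector-like by which of 2 short gene lists had more UMIs. S100a4 was at 69.6 and 31.3 CPM in CD4 naive-like cells and at 1089 and 552 CPM in CD4 effector-like cells (BLM and naïve), and at 53.0 and 25.5 CPM in CD8 naive-like cells. Of the 7 T cell groups plotted, naive-like cells also had the lowest S100a6, at 118 and 31.3 CPM for CD4 and 96.3 and 27.5 CPM for CD8 cells. CD8 effector-like cells went the other way for S100a4, with 212 CPM in 96 BLM cells and 573 CPM in 38 naïve cells (log2 ratio -1.43, -1.93 to -0.94), and S100a11 was at 156.5 and 411 CPM there (-1.39). In CD4 effector-like cells Anxa1 was at 65.1 CPM in 95 BLM cells and 280.3 CPM in 33 naïve cells (-2.11, -3.02 to -1.24). These values rested on few cells, with 18 UMIs in 13 BLM cells and 34 UMIs in 8 naïve cells. The mean of the single-cell levels was 70.1 CPM in BLM and 124.9 CPM in naïve cells, which lie closer together. Gamma delta T cells had S100a4 at 904 and 811 CPM and S100a10 at 1214 and 670 CPM (0.86, 0.44 to 1.28).

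T cells with a Foxp3 UMI, the regulatory T cells or Tregs, had the highest S100a4 level of the 7 BLM T cell groups plotted. It was at 1581 CPM in 86 BLM Tregs (595 UMIs) and 198 CPM in 22 naïve Tregs (19 UMIs), 7.97-fold higher (log2 ratio 2.99, 2.34 to 3.74). The median BLM Treg had 1340 CPM and the median naïve Treg 0. S100a6 was at 1241 and 1034 CPM and S100a10 at 1725 and 2975 CPM, but these naïve values rested on few cells. A single naïve Treg of 15948 UMIs (median of the naïve Tregs 2812), which had 5 of 6 T cell markers and 3 of 6 alveolar macrophage markers, held 108 of the 285 S100a10 UMIs, 38 of the 99 S100a6 UMIs and 37 of the 53 Anxa2 UMIs. Without this cell S100a10 was at 2217 CPM and S100a6 at 764 CPM in naïve Tregs, and the log2 ratio of Anxa2 went from -2.57 to -1.11 (-1.999 to -0.16), while that of S100a4 was 3.17 (2.41 to 4.05). After all Foxp3 cells with UMIs of 2 or more alveolar markers were left out (73 BLM and 18 naïve cells remained), S100a4 gave 2.71 (1.95 to 3.59), S100a6 1.19 (0.66 to 1.77), S100a10 -0.17 (-0.47 to 0.15), S100a11 -0.85 (-1.38 to -0.29) and Anxa2 -0.89 (-2.05 to 0.40). S100a4 was higher and S100a11 lower in BLM in each of these selections, and the intervals of S100a10 and Anxa2 held 0 in the last. Both selections were chosen after the data were seen.

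**Figure D5:**
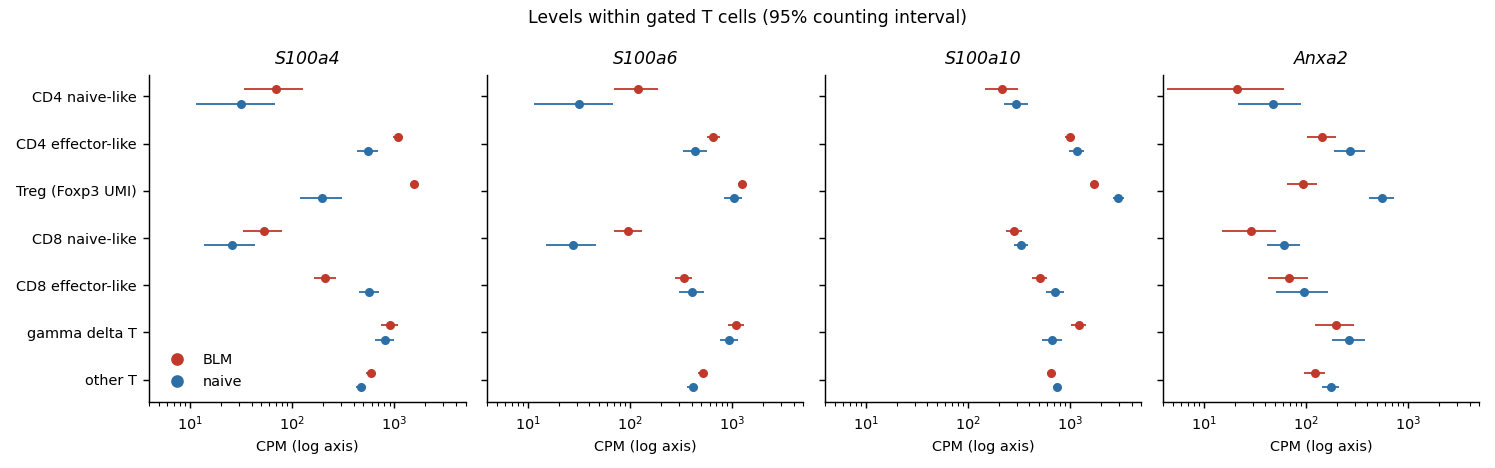
Levels of S100a4, S100a6, S100a10 and Anxa2 (CPM, log axis) in 7 groups of gated T cells of the BLM (red) and naïve (blue) libraries, with exact Poisson 95% intervals. The red S100a4 point of Tregs, at 1581 CPM, lies well to the right of the blue point at 198 CPM, while CD8 effector-like cells show the reverse order, with 212 against 573 CPM.

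Classes with at least 20 cells were put in order of level for each gene, with all T cells as a single class. The T cell groups were not ranked, though BLM Tregs, at 1581 CPM of S100a4 and 1725 CPM of S100a10, stood above every ranked BLM class. Naïve Tregs, at 2975 CPM of S100a10 on few cells, stood above every ranked naïve class. S100a4 was highest in migratory dendritic cells (1437 CPM) and cDC2 (1312 CPM) of the BLM library, whose intervals overlapped, and in classical monocytes of the naïve library (1286 CPM). The S100a6 order began with neutrophils, followed by the few stromal cells that passed the sort (1233 and 1473 CPM). S100a10 was highest in group 2 innate lymphoid cells of the BLM library (1250 CPM, 36 cells) and in naïve cDC2 (1060 CPM), alveolar macrophages (1051 CPM) and C1q macrophages (1048 CPM), which were not separated. Neutrophils led S100a11 in both libraries. For Anxa1 the leading BLM class was neutrophils, not separated from the macrophages with both marker sets (760 CPM), and the leading naïve class was cDC1 (889 CPM), not separated from neutrophils. Among naïve classes alveolar macrophages led Anxa2 (1584 CPM) and Anxa4 (347 CPM), and stromal cells led Anxa5 (589 CPM), not separated from alveolar macrophages (529.9 CPM). In BLM the macrophages with both marker sets had the highest Anxa2 (1017 CPM), Anxa4 (551.5 CPM) and Anxa5 (388 CPM), not separated from the next class in each case.

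Across the 23 class and library columns with at least 50 cells, the genes most alike in log2(CPM + 10) were named for each member among 9710 genes. These correlations describe columns that share libraries and depth, and carry no p. S100a8 and S100a9 were most like each other and like Il1f9, which encodes interleukin 36 gamma (Pearson r 0.97 for S100a8 with S100a9, 0.97 for S100a8 and 0.99 for S100a9 with Il1f9), then like Arg2 (0.97) for S100a8 and Acod1 (0.99) and Asprv1 (0.98) for S100a9. S100a4 was most like St6galnac6 (0.82), Tmem176b (0.78) and Tmem176a (0.76), and S100a6 like Rell1 (0.86), Ptgs2 (0.80) and Srgn (0.80). S100a10 went with Bckdk (0.88), Sept11 (0.86) and Slc38a10 (0.85), and S100a11 with Rab11fip1 (0.87), Sesn2 (0.87) and Lcp1 (0.82). The annexins had Tmed10 (0.86), Ralb (0.86) and Rab7 (0.86) for Anxa1, Snx10 (0.90), Pqlc3 (0.86) and Prr5l (0.85) for Anxa2, Sept2 (0.93), Renbp (0.93) and Slc39a1 (0.92) for Anxa4, and Cmtm3 (0.97) and Acvr1 (0.94) for Anxa5. Within the 10 genes the next highest pairs were Anxa4 with Anxa5 (0.83) and Anxa1 with Anxa2 (0.78), and the lowest was S100a9 with S100a10 (-0.76). S100a10 and Anxa2, whose proteins form a complex, had r = -0.03.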

How the data were processed

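Living CD45+ lung cells of 3 mice per group were pooled and captured on the BD Rhapsody system with the whole transcriptome kit. The authors made the deposited UMI counts per cell with the BD WTA Rhapsody Analysis Pipeline 1.8, which corrects UMI errors, on GRCm38. No authors' cell annotation was used here. From these counts, cells with at least 200 genes and at most 15% mitochondrial UMIs were kept, and the 3% of cells with the highest Scrublet score (scanpy 1.11.5) were left out as doublets. A cell took the class with the largest share of its 6 markers detected, with at least 2. Depth and cell numbers limit precision: at 20 UMIs over both libraries only large ratios leave out 0. Ratios were tested on simulated data. With 1 library per group no test was run. The 10 genes, the other gene lists and the rules were chosen with earlier results of these data known. All 10 genes are named, with the 3 genes most alike to each (1 of these is not reported here), and genes of other lists when past 2-fold with the largest or second largest ratio of the list in a class. Alternatives are given at the end.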

Additional observations from a re-analysis of the deposited data

Results flagged for a closer look

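S100a8 was past 2-fold in opposite directions in a pair of classes. Its log2 ratio of BLM to naïve was 1.28 in nonclassical monocytes (162.5 against 67.2 CPM) and -1.92 in cDC1 (14.6 against 55.3 CPM). The difference between the classes was not tested, since each group has 1 library. Both values rest on few UMIs, 62 and 69 in nonclassical monocytes and 7 and 32 in cDC1, and S100a8 in naïve cDC1 was at the level of naïve B cells (53.7 CPM).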

How the results depend on the processing

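Of 529 recomputed values over 69 ratios, 451 lay within the counting interval of the reported value and 4 of the others changed sign. Of these, Anxa4 in classical monocytes had been past 2-fold, and its log2 ratio was -0.0475 with classes from clusters. S100a4 in neutrophils (-0.09) and S100a8 in C1q macrophages (-0.59) also turned with classes from clusters, and S100a8 in T cells, at -0.57, turned to 0.51 with doublets kept. The cause of these moves was not tested. The numbers of the 10 genes past 2-fold changed as follows. With a mitochondrial limit of 10%, 1 gene was higher in B cells in place of 0 (S100a4, 1.19). With doublets kept, 2 were higher in neutrophils and 1 in B cells in place of 0. With 3 markers required, 0 were higher in nonclassical monocytes in place of 2. With classes from clusters, 0 were higher in classical and nonclassical monocytes in place of 1 and 2, 1 was higher and 1 lower in C1q macrophages in place of 0, and in cDC2 1 was higher and 0 lower in place of 0 and 1. Without cycling cells, 1 was higher in C1q macrophages (Anxa2, 1.23) in place of 0 and 0 in T cells in place of 1. Relative to the median gene, 1 was higher in neutrophils (S100a10, 1.02) in place of 0. With the B cell level subtracted, 1 was higher in alveolar macrophages in place of 2, 2 in C1q macrophages and 1 each in cDC1 and cDC2 in place of 0, 1 was lower in cDC1 in place of 3, and over all classes 10 were higher in place of 6 and 2 lower in place of 4. There S100a4 and S100a6 in alveolar macrophages gave no ratio, since their naïve levels were below those of naïve B cells, nor did S100a10 in cDC1, whose BLM level was below that of BLM B cells. CPM without S100a8 and S100a9 and a minimum of 100 UMIs moved no count by over 1.5 times. Where a ratio could be formed, S100a4 and S100a6 in alveolar macrophages and S100a10 and Anxa2 in cDC1 were past 2-fold in the same direction under every other alternative run.

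No paired analysis was possible because each group has 1 pooled library, so no library was left out either. Counting intervals say nothing of other mice, and no S100a8 or S100a9 expression is read from levels near that of B cells.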
